A study of Mus musculus with 8 samples.

Results

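B cell identity transcripts were measured in the CD45-depleted cell fraction of the distal mouse lung. The 9 genes are Cd79a, Cd79b, Ms4a1, Pax5, Cr2, Blk, Fcer2a, Cd22 and Cd37, taken by symbol as genes known to mark B cells. All 9 were present among the 22756 genes counted in each library, and all 9 had a mean count of at least 10 over the 8 libraries, the minimum for testing. Their lowest count in any library was 82 (Pax5) and their highest was 6242 (Cd79a).

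RNA-Seq libraries were prepared from adult mice with 2 genotypes of the nicotinic acetylcholine receptor α7, a ligand-gated ion channel encoded by Chrna7. The α7G allele (Chrna7-IRES-tauGFP) expresses the unaltered receptor together with a tauGFP reporter. The α7E260A:G allele (Chrna7-E260A-IRES-tauGFP) carries the same reporter and a receptor change that restricts its calcium signaling, and both strains are > 90percent C57BL/6. Mice of each genotype breathed room air (control) or side-stream cigarette smoke (CS) on 5 days a week during 4 months. Each of the 4 groups, α7G control, α7G CS, α7E260A:G control and α7E260A:G CS, is 1 male and 1 female library. How many mice went into a library is not given in the sources used here, so p-values measure the spread between these libraries, and that spread includes any difference of the sexes. The allele is present in all cells of the mouse, so a difference between genotypes is not tied to any cell type.

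B lymphocytes recognize antigen through a membrane immunoglobulin that signals through the CD79A and CD79B chains, and complement receptors and inhibitory lectins set the strength of that signal. In the lung they are found in the interstitium, in the vessels and in lymphoid follicles, which can form during long inflammation. When B cells become plasma cells they stop expressing most surface and identity genes, PAX5 among them, and secrete large amounts of immunoglobulin.

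The cells had been depleted of CD45-positive leukocytes after the airspaces were lavaged, and the labels describe them as nearly all EpCAM-positive epithelium. The transcripts did not match that description in full. Ptprc, which encodes CD45 and is carried by B cells as by all leukocytes, was counted at 771 to 1935 RPM, the count scaled to the same total in each library, and at 191 to 480 RPM per kilobase of coding sequence (RPKM). Epcam lay between 83.1 and 225 RPKM, and Ptprc exceeded it per length in 7 of 8 libraries. Sftpc, the surfactant gene of AT2 epithelial cells, was far above both in all 8 libraries, at 4012 to 34790 RPKM, so epithelial and leukocyte transcripts were both present. Total counts ranged from 8020726 to 10944100 per library, so 3 counts correspond to 0.274 to 0.374 RPM, far under the level of each of the 9 genes. Together the 9 genes took 0.101% to 0.269% of all counts.

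The promoters of these genes are shown because B lineage genes share a small set of binding motifs. RefSeq windows of the 250 bases before the start site (build GRCm38.p6) were matched for 6 genes, with 3 windows for Fcer2a and 8 windows in all. Those of Cd79a (chr7:24897247-24897496, + strand) and Cd22 (chr7:30879029-30879278, - strand) are given 5′ to 3′ along the gene, since Cd79a is the most abundant of the 9 and Cd22 the one whose level differed least between genotypes. Capitals mark matches on either strand to GAGGAA, the core bound by PU.1, to AGGAAG, an ETS core, and to the palindrome bound by EBF1, which is TCCC and GGGA with any 2 bases between.
Cd79a: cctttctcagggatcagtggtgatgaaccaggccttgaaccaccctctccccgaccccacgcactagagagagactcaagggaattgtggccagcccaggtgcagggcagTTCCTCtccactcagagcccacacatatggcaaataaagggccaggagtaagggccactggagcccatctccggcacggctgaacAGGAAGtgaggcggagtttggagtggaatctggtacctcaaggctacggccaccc
Cd22: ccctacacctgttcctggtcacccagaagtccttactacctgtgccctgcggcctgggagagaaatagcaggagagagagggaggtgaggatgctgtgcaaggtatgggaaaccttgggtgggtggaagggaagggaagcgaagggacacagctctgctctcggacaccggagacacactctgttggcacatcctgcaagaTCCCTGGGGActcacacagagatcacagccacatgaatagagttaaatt
In the Cd79a window the capitals are a PU.1 core read on the opposite strand and an ETS core, and in the Cd22 window they are an EBF1 palindrome. The EBF1 palindrome occurred in 0.779% of the 32851 promoter windows of the same length and in 1 of the 8 windows of these genes. The PU.1 core occurred in 23.3% of all windows and in 2 of the 8, those of Cd79a and Cd37. The ETS core occurred in 29.5% of all windows and in 4 of the 8, those of Cd79a and Cd37 and 2 of Fcer2a, and in Cd37 it overlapped a PU.1 core. The octamer ATTTGCAT occurred in 1.6% of all windows and in 0 of the 8. Such matches describe the letters and do not show that a factor was bound.

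Per length of coding sequence, the mean over the 8 libraries was highest for Cd79a (588 RPKM), followed by Cd79b (371 RPKM), Cd37 (305 RPKM), Ms4a1 (222 RPKM) and Cd22 (108 RPKM). Fcer2a (81.6 RPKM), Blk (41.8 RPKM), Pax5 (17.4 RPKM) and Cr2 (15.9 RPKM) were lower. The genes of the receptor complex were thus the most abundant, and the transcription factor and the complement receptor the least.

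The genotypes were compared over both exposures, with all 4 α7E260A:G libraries against all 4 α7G libraries. All 9 genes had lower average levels in α7E260A:G, with a median log2 fold-change of -0.93 against 0.03 over all genes tested, of which 46.6% were lower. By edgeR's quasi-likelihood test, 0 of 9 passed an adjusted p of 0.05 (Benjamini-Hochberg), and 7 of 9 had an unadjusted p under 0.05 in that test. Over all 13637 genes tested, 0.0953% were called (13 genes), and 1561 genes, or 11.4%, had an unadjusted p under 0.05. For 6 of 9 genes, Cd79a, Cd79b, Ms4a1, Blk, Fcer2a and Cd37, every α7E260A:G library lay below every α7G library in RPM, against 5.54% of all genes tested.

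Cd79a (mm9 chr7:25682400-25687216, + strand, ENSMUSG00000003379.7) encodes the Igα chain of the B cell receptor. In α7G it was counted at 521 (male control), 343 (female control), 726 (male CS) and 553 RPM (female CS). In α7E260A:G it was counted at 194 (male control), 292 (female control), 234 (male CS) and 241 RPM (female CS). The CS libraries were the highest of α7G, and no library of α7E260A:G reached the lowest of α7G. The log2 fold-change between genotypes was -1.01 (SE 0.26, edgeR adjusted p = 0.176). On TMM-scaled library sizes, which set the α7E260A:G female control higher, the highest α7E260A:G value was 347 and the lowest α7G value 326, so the genotypes overlapped there.

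Cd79b (mm9 chr11:106172655-106176076, - strand, ENSMUSG00000040592.5) encodes the Igβ partner of CD79A. Its levels in α7G were 414 (male control), 339 (female control), 578 (male CS) and 421 RPM (female CS). Its levels in α7E260A:G were 137 (male control), 255 (female control), 197 (male CS) and 223 RPM (female CS). The genotypes did not overlap on either scaling, and the log2 fold-change was -0.97 (SE 0.29, edgeR adjusted p = 0.232). The ratio of Cd79a to Cd79b counts stayed between 1.01 and 1.42 in the 8 libraries.

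Ms4a1 (mm9 chr19:11324654-11340669, - strand, ENSMUSG00000024673.7) encodes CD20, a membrane protein of mature B cells that plasma cells lack. It was counted at 271 (male control), 220 (female control), 316 (male CS) and 252 RPM (female CS) in α7G. The α7E260A:G levels were 102 (male control), 130 (female control), 133 (male CS) and 129 RPM (female CS). The α7E260A:G libraries were tightly grouped, well below each α7G library. The log2 fold-change was -0.999 (SE 0.21, edgeR adjusted p = 0.119).

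Fcer2a (mm9 chr8:3681737-3694174, - strand, ENSMUSG00000005540.8) encodes CD23, the low-affinity IgE receptor of naive follicular B cells. It was counted at 173 (male control), 94.2 (female control), 154 (male CS) and 95.0 RPM (female CS) in α7G. The α7E260A:G libraries had 33.6 (male control), 42.0 (female control), 48.5 (male CS) and 32.5 RPM (female CS). Fcer2a showed the largest difference of the 9 genes, and its lowest α7G library was still above its highest α7E260A:G library, with the male libraries higher within α7G. The log2 fold-change was -1.62 (SE 0.28, edgeR adjusted p = 0.102), which is a level 0.324 times that of α7G.

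Blk (mm9 chr14:63991674-64036024, - strand, ENSMUSG00000014453.3) encodes a B lineage kinase of the Src family. Its α7G levels were 105 (male control), 63.3 (female control), 90.7 (male CS) and 74.0 RPM (female CS). Its α7E260A:G levels were 47.0 (male control), 28.2 (female control), 49.995 (male CS) and 42.6 RPM (female CS). The genotypes did not overlap on either scaling, and the log2 fold-change was -0.93 (SE 0.20, edgeR adjusted p = 0.13).

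Cd37 (mm9 chr7:52489002-52494485, - strand, ENSMUSG00000030798.7) encodes a tetraspanin of mature B cells that is also found at lower levels on other leukocytes. In α7G it was counted at 379 (male control), 257 (female control), 452 (male CS) and 355 RPM (female CS). Its α7E260A:G levels were 157 (male control), 231 (female control), 207 (male CS) and 193 RPM (female CS). The gap between the female controls was small, and on TMM-scaled library sizes the order turned, with 275 in α7E260A:G above 245 in α7G. The log2 fold-change was -0.76 (SE 0.24, edgeR adjusted p = 0.274).

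Pax5 (mm9 chr4:44544017-44724318, - strand, ENSMUSG00000014030.9) encodes the transcription factor that holds B cells to their lineage. Its α7G libraries had 47.4 (male control), 28.1 (female control), 22.9 (male CS) and 21.8 RPM (female CS). In α7E260A:G it was counted at 25.8 (male control), 11.1 (female control), 22.3 (male CS) and 9.07 RPM (female CS). Here the male α7E260A:G control lay above both α7G CS libraries, and the 2 female α7E260A:G libraries were the lowest of all. The log2 fold-change was -0.73 (SE 0.32, edgeR adjusted p = 0.439).

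Cr2 (mm9 chr1:196963005-197002909, - strand, ENSMUSG00000026616.8) encodes complement receptors CD21 and CD35, which bind complement fragments on antigen and are carried also by follicular dendritic cells. The α7G values were 136 (male control), 81.7 (female control), 68.4 (male CS) and 62.5 RPM (female CS). The α7E260A:G values were 58.1 (male control), 30.4 (female control), 68.8 (male CS) and 32.2 RPM (female CS). The male α7E260A:G CS library lay above both α7G CS libraries, so the genotypes overlapped in RPM. On TMM-scaled library sizes they did not, with a lowest α7G value of 64.5 and a highest α7E260A:G value of 63.9. The log2 fold-change was -0.79 (SE 0.26, edgeR adjusted p = 0.284).

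Cd22 (mm9 chr7:31650421-31665361, - strand, ENSMUSG00000030577.6) encodes a sialic acid-binding lectin that dampens B cell receptor signaling. In α7G it was counted at 402 (male control), 250 (female control), 281 (male CS) and 246 RPM (female CS). In α7E260A:G it was counted at 255 (male control), 208 (female control), 340 (male CS) and 267 RPM (female CS). Cd22 stood apart from the other 8 genes, since its genotypes overlapped widely. The log2 fold-change was -0.07 (SE 0.19, edgeR adjusted p = 0.955), with 0.10 when the α7G male control was left out. Relative to Cd79a in the same library, Cd22 was counted at 0.387 to 0.772 in α7G and at 0.712 to 1.45 in α7E260A:G. Cd22 has 2604 bases of coding sequence and Cd79a 660, and the libraries differed in how counts depend on that length. The part of length in this ratio was not tested.

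**Figure D1:**
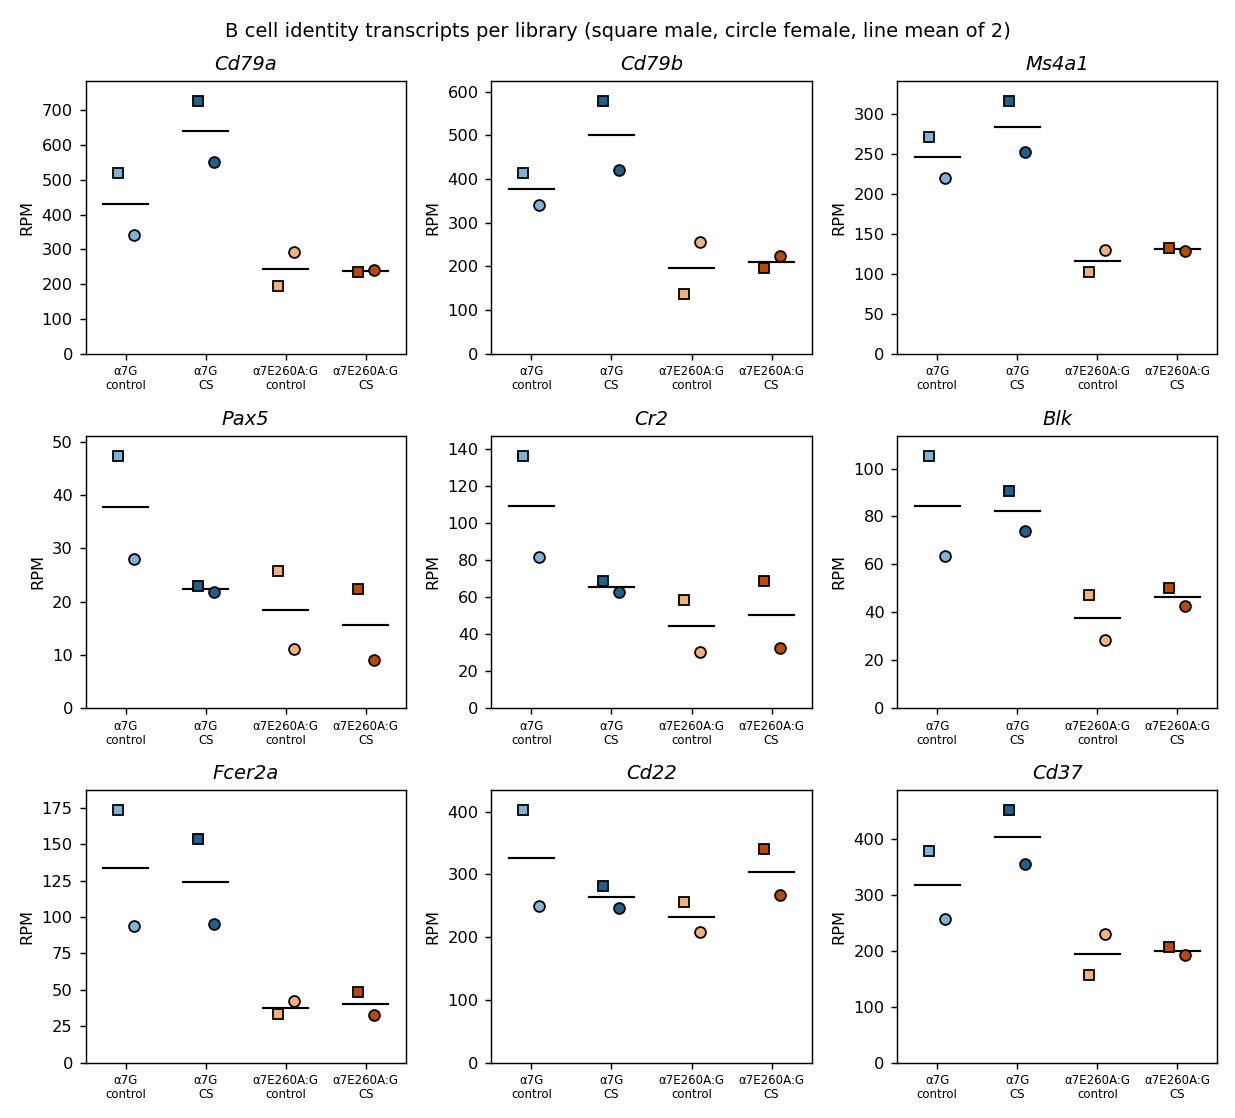
RPM of the 9 B cell identity genes (y axis, linear from 0) in the 4 groups, with squares for male libraries, circles for female libraries and a line at the mean of 2. For Ms4a1 the α7E260A:G libraries lie between 102 and 133 RPM and the α7G libraries between 220 and 316 RPM, whereas for Cd22 the genotypes overlap.

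Summed over the 9 genes, the α7G libraries held 2451 (male control), 1676 (female control), 2689 (male CS) and 2081 RPM (female CS). The α7E260A:G libraries held 1010 (male control), 1227 (female control), 1301 (male CS) and 1169 RPM (female CS). In such bulk libraries, fewer B cells in the CD45-depleted fraction and less RNA from these genes per B cell cannot be told apart. RPM are also shares of a library's total, so they depend on the other transcripts in it. Other cell type lists also differed between genotypes. The 16 alveolar macrophage genes were higher in α7E260A:G for 16 of 16 (median log2 fold-change 0.96). Of these, 12 had an unadjusted p under 0.05 in the edgeR test, against 11.45% of all genes tested. That share also applies to the other lists compared here between genotypes. The 16 summed to 13550 to 21970 RPM in α7G and 29690 to 49780 RPM in α7E260A:G. Msr1, a macrophage scavenger receptor, was the gene of these lists that was called, with a log2 fold-change of 2.85 (SE 0.24, edgeR adjusted p = 0.0143). The 9 genes of AT2 cells, which make surfactant, were lower for 9 of 9 (median -1.18). Of these AT2 genes, 8 had an unadjusted p under 0.05 in the edgeR test and 0 were called. For 6 of them every α7E260A:G library lay below every α7G library in RPM, against 5.54% of all genes tested. The AT2 genes summed to 20110 to 30670 RPM in α7G and 4767 to 14840 RPM in α7E260A:G. Sums over 7 pan-leukocyte genes lay between 5741 and 7148 RPM in α7G and between 5963 and 6563 RPM in α7E260A:G. Sums over 12 T cell genes were 1120 to 1602 RPM and 989.5 to 1587 RPM, and sums over 9 NK cell genes were 1013 to 1693 RPM and 734.6 to 1950 RPM, so these sums overlapped between genotypes. By gene, 9 of 12 T cell genes (median log2 fold-change -0.22) and 8 of 9 NK cell genes (median -0.26) were lower in α7E260A:G. Of the T cell genes 0 of 12 and of the NK cell genes 0 of 9 had an unadjusted p under 0.05 in the edgeR test, and 0 were called. Endothelial genes were lower in α7E260A:G for 7 of 7 (median -0.48, 3 with an unadjusted p under 0.05 in that test) and general epithelial genes for 4 of 5 (median -0.69, 3 with an unadjusted p under 0.05), with 0 called in either list. The levels of these lists do not separate cell number from RNA per cell either, and their bearing on the levels of the B cell genes was not tested.

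**Figure D2:**
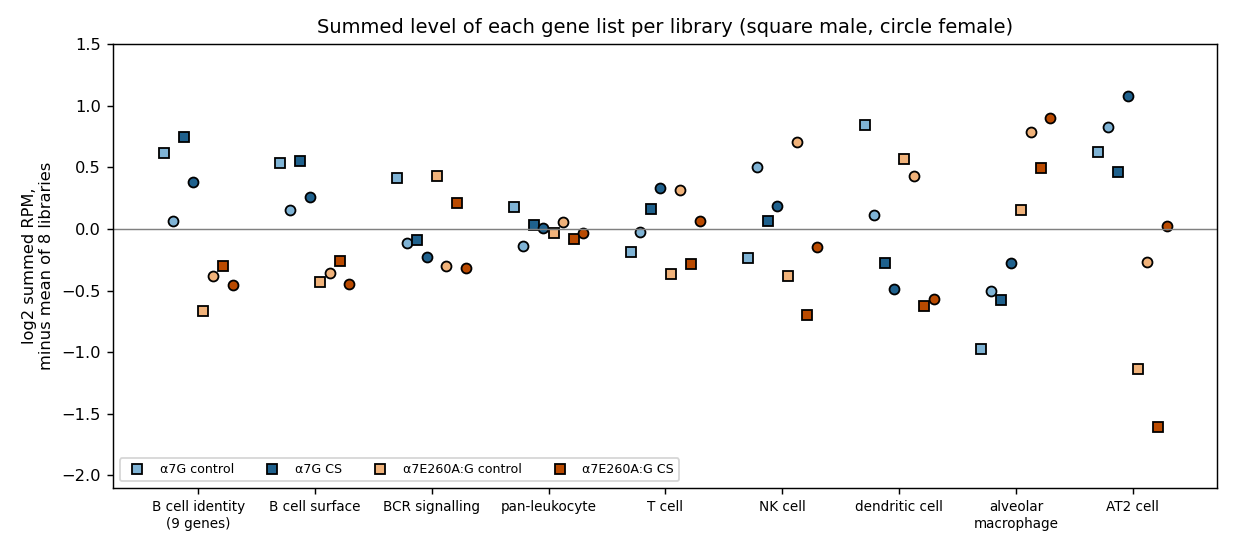
Sum of RPM over each gene list in each library, as log2 minus the mean of the 8 libraries (y axis), with blue for α7G, orange for α7E260A:G, squares for male and circles for female libraries. The 9 B cell identity genes sum to 1676 to 2689 RPM in α7G and 1010 to 1301 RPM in α7E260A:G, while the alveolar macrophage sums are higher and the AT2 sums lower in α7E260A:G.

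How many of the 9 genes were called between genotypes depended on the fit. DESeq2, with 3.78% of all genes called, called 4 of 9 lower in α7E260A:G, with adjusted p of 4.6e-05 for Fcer2a, 0.00414 for Ms4a1, 0.00824 for Blk and 0.0222 for Cd79a. edgeR with an offset for coding sequence (CDS) length, which called 3.7% of all genes, called 6 of 9 lower. They were Ms4a1 (adjusted p = 0.0114), Fcer2a (0.0132), Cr2 (0.0144), Cd79a (0.0231), Blk (0.0257) and Cd79b (0.0301). Without the α7E260A:G male control 3.07% of all genes were called by edgeR, with Fcer2a (adjusted p = 0.0276), Blk (0.0412) and Ms4a1 (0.0455) among them. Without the α7E260A:G female control 4.74% were called, with Fcer2a (adjusted p = 0.0129), Ms4a1 (0.0134), Cd79b (0.0139), Cd79a (0.0171) and Cd37 (0.0276) among them. Leaving out any of the other 6 libraries gave 0 of 9. Pax5 and Cd22 were called in none of these fits.

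Genes that act beside the 9 were read from further lists. Of 20 B cell surface and co-receptor genes, 18 were lower in α7E260A:G (median log2 fold-change -0.78). By the edgeR test 15 had an unadjusted p under 0.05, against 11.45% of all genes tested, and 0 were called. For 12 every α7E260A:G library lay below every α7G library in RPM, against 5.54% of all genes tested. Among the most abundant, Faim3, the IgM Fc receptor, was counted at 254.6 to 479.6 RPM in α7G and 109.7 to 145.8 RPM in α7E260A:G, with a log2 fold-change of -1.32. Ccr7, which guides lymphocytes to lymphoid tissue, ranged from 169 to 249.05 RPM and from 101 to 132 RPM (-0.62). Cd81, a tetraspanin made by most cells, overlapped between 148 to 214 RPM and 164 to 240 RPM (0.29).

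Signaling genes that B cells share with other leukocytes lay on both sides of 0. In the genotype comparison, 11.45% of all genes tested had an unadjusted p under 0.05 by edgeR, the share for each list here. Of 19 measured genes of B cell receptor signaling, 9 were lower in α7E260A:G, 4 had an unadjusted p under 0.05 in the edgeR test and 0 were called (median 0.01). Among the most abundant were the phosphatase Ptpn6 (log2 fold-change 0.01), the adaptor Pik3ap1 (0.52) and the phospholipase Plcg2 (0.09). Of 12 B lineage transcription factors, 11 were lower, 4 had an unadjusted p under 0.05 and 0 were called (median -0.28). Spib, an ETS factor of B cells and plasmacytoid dendritic cells, ranged from 51.9 to 98.7 RPM in α7G and from 27.96 to 43.5 RPM in α7E260A:G (-0.99). The broader factors Irf8 (-0.11), Ikzf1 (-0.07) and Tcf3 (-0.25) differed by less. Of 8 tested factors that attract or sustain B cells, 5 were lower, 1 had an unadjusted p under 0.05 and 0 were called (median -0.12). Ltb, a lymphotoxin chain needed for lymphoid follicles and made by lymphocytes, ranged from 219 to 412 RPM in α7G and from 124 to 208 RPM in α7E260A:G (-0.74). Cxcl13, the follicular attractant of B cells, was counted at 1.81 to 25.0 RPM and 1.75 to 14.9 RPM (-0.01), Tnfsf13 had a log2 fold-change of 0.71 and Tnfsf13b, which encodes the survival factor BAFF, one of 0.22.

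CS was compared with control within each genotype to ask whether smoke moved the 9 genes. In α7G 0 of 9 were called by edgeR (0% of all genes tested, 915 at an unadjusted p under 0.05, 25 called by DESeq2), 0 of 9 had an unadjusted p under 0.05, and the adjusted p ran from 0.639 to 0.976. Of the 9, 6 were higher and 3 lower with CS, with a median log2 fold-change of 0.11 against 0.00152 over all genes. The receptor chains had the largest values, 0.71 for Cd79a (SE 0.36) and 0.55 for Cd79b (SE 0.41), and Cd37 (0.48, SE 0.34) and Ms4a1 (0.35, SE 0.29) followed. Cd79a was counted with CS at 1.39 times the control in males and 1.61 times in females. Pax5 (-0.61, SE 0.45) and Cr2 (-0.59, SE 0.37) had values of the opposite sign. Pax5 was counted at 0.484 times the control in males and 0.776 times in females, and Cr2 at 0.502 and 0.765 times. Blk (0.11), Fcer2a (0.04) and Cd22 (-0.16) were nearer to 0. With SE of 0.26 to 0.45, changes of these sizes were not distinguishable from the spread of the libraries.

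In α7E260A:G 0 of 9 were called by edgeR (0.00733% of all genes, 1 gene, with 428 at an unadjusted p under 0.05 and 35 called by DESeq2) and 0 of 9 had an unadjusted p under 0.05. The adjusted p was 0.9997 for each. The log2 fold-changes lay between -0.29 (Pax5) and 0.32 (Cd22), with a median of -0.02 against -0.02 over all genes. Cd79a had -0.14, Cd37 -0.06, Cd79b and Fcer2a both -0.02, Ms4a1 0.08, Cr2 0.13 and Blk 0.26. For Cd79a, Cd79b, Ms4a1, Fcer2a and Cd37 the male CS library was above its control and the female CS library below. Cd79a was counted with CS at 1.21 times the control in males and 0.826 times in females.

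The difference between the 2 CS responses was tested by an interaction term. By edgeR 0 of 9 were called (0% of all genes, 297 at an unadjusted p under 0.05, 7 called by DESeq2), and the adjusted p was 0.9996 for each of the 9. The values ran from -0.85 (Cd79a, SE 0.51) to 0.72 (Cr2, SE 0.53) with 5 below and 4 above 0. Over both genotypes, CS against control gave 7 of 9 higher with a median of 0.19 and a range from -0.45 to 0.29, and edgeR called 0 of 9 (0% of all genes, 1042 at an unadjusted p under 0.05, 68 called by DESeq2). The adjusted p there ran from 0.715 to 0.99.

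**Figure D3:**
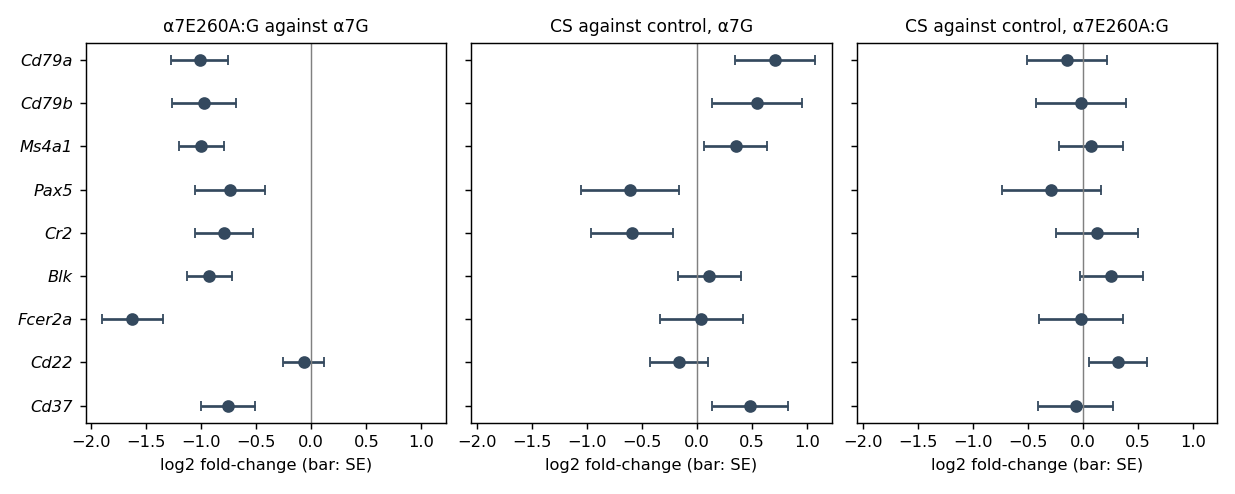
log2 fold-change (x axis) with its SE (bar) from edgeR for each of the 9 genes, between genotypes (left) and for CS against control in α7G (middle) and α7E260A:G (right). All 9 points lie below 0 in the left panel, from -1.62 for Fcer2a to -0.07 for Cd22, while in the CS panels they lie on both sides of 0.

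CDS length moved with the CS values in α7G. Over the 9 genes the log2 fold-change and log2 CDS length had a Pearson r of -0.804, from Cd79a with 660 bases to Cr2 with 4224 bases (n = 9 genes measured in the same libraries, no test). The r was of the opposite sign, 0.546, for CS in α7E260A:G and 0.505 for the genotype comparison. The libraries differed in how counts depend on CDS length. Over all genes, the log2 level relative to the mean of the libraries sloped by -0.231 and -0.205 per doubling of CDS length in the α7G CS libraries and by 0.222 and 0.0585 in the α7G controls. The α7E260A:G slopes were 0.422 (male control), 0.204 (male CS), -0.296 (female control) and -0.174 (female CS). With the length offset, the CS values in α7G were 0.25 for Cd79a, 0.25 for Cd79b, 0.21 for Cd37 and 0.06 for Ms4a1. The offset left Cr2 at -0.02 and turned Cd22 to 0.13 and Fcer2a to -0.18. Pax5, with a CDS of 1354 bases, stayed at -0.67 and Blk, with 1497 bases, at 0.11. Between genotypes all 9 values stayed below 0 with the offset, with a median of -0.98.

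**Figure D4:**
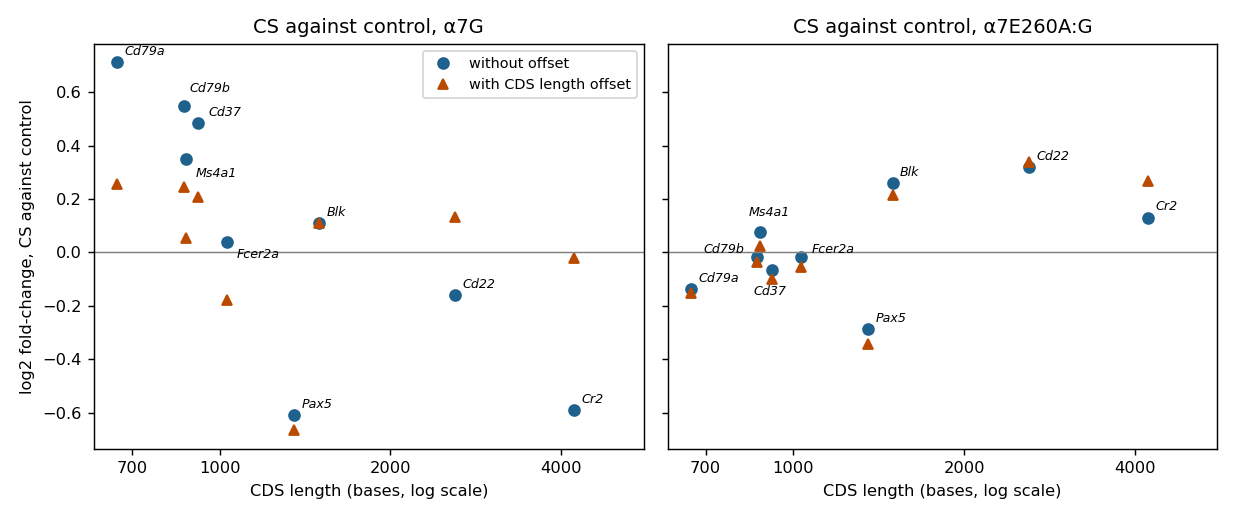
log2 fold-change of CS against control (y axis) by CDS length in bases (x axis, log scale) for the 9 genes in α7G (left) and α7E260A:G (right), from edgeR without (circles) and with (triangles) an offset for CDS length. In α7G the short Cd79a moves from 0.71 to 0.25 and the long Cr2 from -0.59 to -0.02 with the offset, while Pax5 moves only from -0.61 to -0.67.

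Immunoglobulin genes, whose transcripts come mostly from plasma cells, were set beside the 9. Of 6 immunoglobulin constant genes measured, 3 were lower in α7E260A:G, 0 had an unadjusted p under 0.05 in the edgeR test and 0 were called (median log2 fold-change 0.01). Igkc, the κ light chain constant region, was counted at 25447 RPM in the α7E260A:G female control and at 1937 to 5118 RPM in the other 7 libraries. In that library Igj, the joining chain of secreted IgM and IgA, was at 5424 RPM against 319 to 832 RPM elsewhere, while Cd79a was at 292 RPM. Relative to Cd79a, Igkc was at 87.2 there and at 4.69 to 10.6 in the other 7 libraries, and Igj at 18.6 and at 0.568 to 1.89. Ighm reached 7025 RPM and Ighg2c 4689 RPM in that library, with 1138 to 3034 RPM and 74.1 to 822 RPM elsewhere. That library was then set aside, a choice made after its values were seen. Without it Igkc was at 1937 to 2079 RPM in α7E260A:G and 3404 to 5118 RPM in α7G. Ighm was then at 1138 to 1826.5 RPM and 1876 to 3034 RPM, and Iglc2 at 66.8 to 126 RPM and 137 to 356 RPM. Igj was at 319 to 399 RPM and 413 to 832 RPM. Ighg2c overlapped between genotypes, at 74.1 to 642 RPM and 137 to 822 RPM. Ighg1 overlapped too, at 14.1 to 126 RPM and 31.7 to 207 RPM. The share of all genes that separated without that library was not computed. Of the plasma and germinal centre genes, 2 of 8 tested were lower in α7E260A:G (median 0.15). By the edgeR test 0 were called and 1 had an unadjusted p under 0.05, against 11.45% of all genes tested. That one is Sdc1, which encodes the plasma cell and epithelial surface protein syndecan-1, at 84.6 to 108 RPM in α7G and 44.4 to 62.9 RPM in α7E260A:G (-0.81). Xbp1, the secretory pathway factor of plasma cells, had a log2 fold-change of 0.31. Counts on immunoglobulin genes can be split among near-identical copies, so their levels are uncertain.

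**Figure D5:**
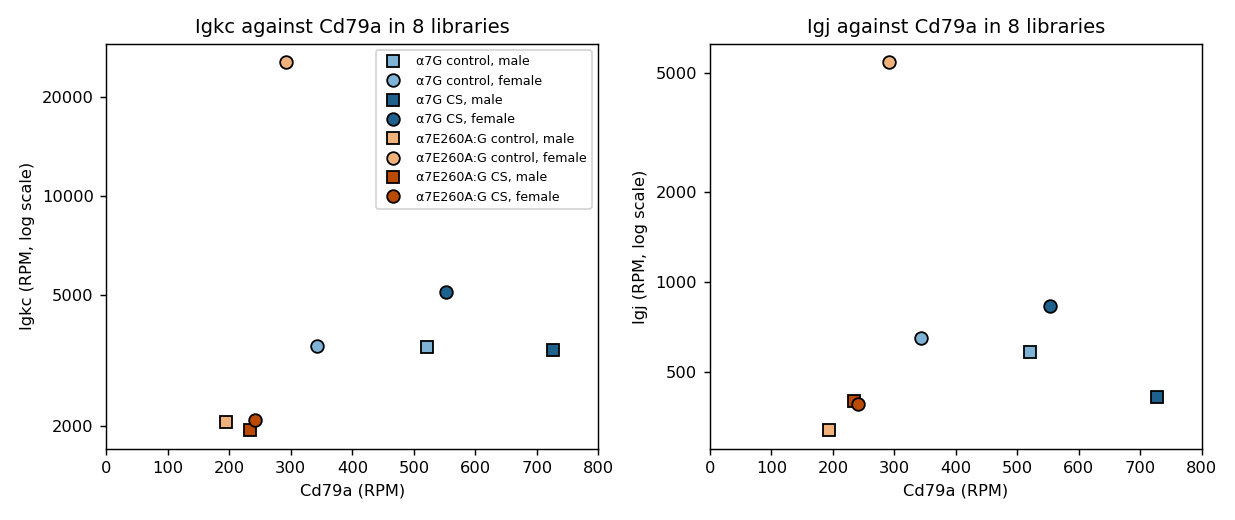
Igkc (left) and Igj (right) in RPM on a log scale (y axis) against Cd79a in RPM (x axis) in the 8 libraries. The α7E260A:G female control stands at 25447 RPM of Igkc and 5424 RPM of Igj with 292 RPM of Cd79a, whereas the other 7 libraries have at most 5118 and 832 RPM.

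Among themselves the 9 genes formed 36 pairs, whose Pearson r of log2 levels over the 8 libraries had a median of 0.756. The highest were Cd79a with Cd37 (0.991), Cd79b with Cd37 (0.975), Cd79a with Cd79b (0.973) and Pax5 with Cr2 (0.971). The lowest were Cd22 with Cd79b (0.165) and Cd22 with Cd79a (0.204). These values describe the 8 libraries, which share the difference between genotypes and the dependence on CDS length. Of the 10 other genes whose levels over the 8 libraries were most like the mean of the 9, 4 were in the B cell lists, Cxcr5 (r = 0.99), the chemokine receptor for CXCL13, Tnfrsf13c (0.988), the BAFF receptor, Bank1 (0.983), a scaffold of B cell receptor signaling, and H2-Ob (0.98), a class II antigen-processing chain of B cells. Others of the 10 were Wdr85 (0.978), Nsun4 (0.978), Fam108b (0.975), Xkrx (0.974) and Ptp4a3 (0.972).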

How the data were processed

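RNA-Seq libraries were made with a stranded poly-A mRNA kit from the CD45-depleted cells of the distal lung. The authors aligned reads with STAR to mm9 (NCBIM37) and counted those on coding sequences with HTSeq and GENCODE M1 (versions not given in the sources used here), and the deposited values are raw counts per gene. RPM were computed from total counts, and log2(RPM + 0.5) was used for correlations. The 13637 genes whose mean count was 10 or more were tested with edgeR 4.0.16 (limma 3.58.1, R 4.3.3), by glmQLFit and glmQLFTest with TMM scaling, with a group factor of 4 levels and no sex term, and Benjamini-Hochberg adjustment over all genes tested. A gene was called at an adjusted p under 0.05. The authors' filter of a mean of at least 200 counts was an alternative. SE were derived from the F statistic. Alternatives were other filters, library size scaling, DESeq2 1.42.0, an offset for CDS length (lowess, span 0.5), a block for sex, and leaving out each library. Coordinates are those of GENCODE M1. The scripts were tested on simulated data. Other computations used Python 3.11.15, numpy 2.4.6, pandas 2.3.3 and matplotlib 3.10.9. The 9 genes and all lists were chosen with earlier results of these data known. Named from each list were the called genes, or those with the 4 highest mean counts, and the 10 genes most correlated with the mean of the 9. Epcam, outside this rule, was named after its values were seen, as a marker of the sort. Some genes that this rule names are not reported here, and listed genes without a value were not analysed here.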

Additional observations from a re-analysis of the deposited data

Results flagged for a closer look

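In RPM on total counts, Cr2 and Cd22 had lower values with CS in α7G and higher values in α7E260A:G, in both the male and the female libraries. On TMM library sizes this did not hold in the females, where Cd22 in α7G was at 237.9 in control and 254 with CS and Cr2 in α7E260A:G at 36.2 and 35.1. In RPM on total counts, Cr2 with CS was at 0.502 times the control in males and 0.765 times in females of α7G, and at 1.18 and 1.06 times in α7E260A:G. The difference of the responses was 0.72 on the log2 scale (SE 0.53, edgeR adjusted p = 0.9996). Cd22 was at 0.699 and 0.986 times in α7G and at 1.33 and 1.28 times in α7E260A:G, with a difference of 0.48 (SE 0.37, edgeR adjusted p = 0.9996). Neither passed the test of the difference. With the offset for CDS length the differences were 0.29 for Cr2 and 0.20 for Cd22 (edgeR adjusted p = 0.99 for both). Without the α7G male control they were 0.35 and 0.14, and without the α7E260A:G male CS library 0.22 and 0.42.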

How the results depend on the processing

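Calls depended on the fit. Genes called under DESeq2 numbered 25 for CS in α7G, 35 for CS in α7E260A:G, 7 for the difference of the responses, 516 for genotype and 68 for CS over both genotypes, against 0, 1, 0, 13 and 0. With the length offset these were 0, 2, 1, 504 and 3. No filter beyond 1 count gave 3 for CS in α7E260A:G, 69 for genotype (Fcer2a among them) and 1 for CS over both genotypes. The study's filter gave 0 for CS in α7E260A:G and 6 for genotype, and library size scaling gave 0 for CS in α7E260A:G. Fitted alone, the libraries of α7G gave 980 and those of α7E260A:G 0. Male minus female differences in log2 level, taken over the genes tested, correlated between groups at -0.0184 to 0.587 (0.587 between the α7E260A:G groups). The main fit took no pairing by sex, so a difference of the sexes shared between groups counted as spread there. The replicate block for sex gave 0 for CS in α7E260A:G and 43 for genotype (0 of the 9 genes). The replicate block with the offset gave 2, 698 (6 of 9) and, for CS over both genotypes, 4. Without 1 library, where the lone sample of a group is assumed to vary like the others, counts ran from 0 to 142 for CS in α7E260A:G, 0 to 97 for the difference, 1 to 646 for genotype and 0 to 100 for CS over both genotypes. The highest of these were without the α7E260A:G male control, except genotype (female control). Between genotypes the signs of the 9 log2 fold-changes held in all alternatives, apart from Cd22 without the α7G male control (-0.20 to 0.10 over the libraries left out). The non-overlap count of 6 was 5 on TMM library sizes, 7 with the linear dependence on CDS length removed (chosen after seeing the data), and 6 to 7 without 1 library. The share of all genes was computed only in RPM with all 8 libraries (5.54%), so these other counts have no share beside them. Library size scaling, under which the median of all genes was -0.136 for CS in α7G and 0.212 for the difference (0.00152 and 0.021 with TMM), put Blk at -0.035 and Fcer2a at -0.10 in α7G, and Cd79b at 0.10, Fcer2a at 0.098 and Cd37 at 0.045 in α7E260A:G. The offset put Fcer2a at -0.18 and Cd22 at 0.13 in α7G, and the replicate block with it -0.16 and 0.13, while the block alone put Cd79b at 0.017 in α7E260A:G. Without 1 library, CS in α7G ran from -0.18 to 0.48 for Blk, -0.36 to 0.50 for Fcer2a and -0.43 to 0.18 for Cd22. CS in α7E260A:G ran from -0.53 to 0.43 for Cd79a, -0.51 to 0.76 for Cd79b, -0.23 to 0.49 for Ms4a1, -0.92 to 0.21 for Pax5, -0.37 to 0.48 for Cr2, -0.31 to 0.38 for Fcer2a and -0.45 to 0.48 for Cd37. The cause of these changes was not tested. With 2 libraries a group, small CS effects were not detectable.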

Other observations

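Dendritic cell genes had lower values with CS, though none was called. Of 9 such genes, 9 were lower with CS in α7G (median log2 fold-change -0.95) and 9 in α7E260A:G (median -1.16). Over both genotypes 0 of 9 were called by edgeR and 6 of 9 had an unadjusted p under 0.05, against 7.64% of all genes tested. The sums over the 9 genes were 142 to 236 RPM in α7G controls, 93.7 to 109 RPM in α7G CS, 178 to 195 RPM in α7E260A:G controls and 85.2 to 88.8 RPM in α7E260A:G CS. The immunoglobulin constant genes were lower with CS in α7E260A:G for 6 of 6 (median -2.48). By the edgeR test 0 were called and 4 had an unadjusted p under 0.05, against 3.14% of all genes tested. In this comparison the female control held 25447 RPM of Igkc. In the male libraries of that genotype Iglc2 was at 66.8 RPM in control and 86.9 RPM with CS, and Igkc at 2056 and 1937 RPM. Ighm was there at 1826.5 and 1138 RPM and Ighg2c at 642 and 74.1 RPM. The ratio of Cd22 to Cr2 counts, chosen after the values were seen, was 2.95 to 4.11 in α7G and 4.39 to 8.29 in α7E260A:G. Cd22 and Cr2 differ in CDS length (2604 and 4224 bases), and the part of length in this ratio was not tested.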
